A study of Mus musculus with 4 samples.

Results

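Transcripts of 10 desmosome genes were measured in newborn mouse epidermis of control pups and of pups with Skiv2l deletion directed to keratinocytes. They were the desmogleins Dsg1a, Dsg1b, Dsg2 and Dsg3, the desmocollins Dsc1, Dsc2 and Dsc3, the plaque proteins desmoplakin (Dsp) and plakophilin 1 (Pkp1), and corneodesmosin (Cdsn). The genes were taken by symbol from the 54752 genes of the deposited tables, and all 10 passed the filter for low values that left 13609 protein-coding genes for testing. Total RNA came from the epidermis of P0 pups of the C57BL/6 strain, with 2 pups of genotype Skiv2l ctl and 2 of genotype Skiv2l fl/fl K14-Cre, hereafter control and knockout. SKIV2L is an RNA helicase that helps the cytoplasmic RNA exosome degrade RNA. The knockout pups were homozygous for a loxP-flanked Skiv2l allele and carried a constitutive Cre transgene driven by the K14 (keratin 14) promoter, so the deletion was directed to keratinocytes and other cells kept the gene. The control group takes in littermates that are Skiv2l fl/fl, fl/+ or fl/+ K14-Cre, which means that a control could carry Cre, and the genotype of each control pup was not given. Each library came from 1 pup, and where 1 level is given for a group it is the mean of its 2 pups.

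Desmosomes are spot-like junctions that hold neighbouring keratinocytes together against mechanical strain. Desmogleins and desmocollins are the cadherins whose outer parts meet between cells, and inside the cell their tails bind plakoglobin (Jup) and plakophilins, which bind desmoplakin, which in turn anchors the keratin filaments. In normal epidermis Dsg1 and Dsc1 are most abundant in the upper layers and Dsg3 and Dsc3 in the lower layers, while Dsg2 and Dsc2 are the forms found in simple epithelia and heart. In the outermost layers desmosomes become corneodesmosomes by adding corneodesmosin, and kallikrein proteases cut them as cells are shed.

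The libraries held 5.84 to 6.27 gigabases of aligned sequence, as computed from the ratio of the deposited coverage to FPKM, and 16138 to 17761 genes were above 0.5 FPKM, the lowest number being in knockout 2. FPKM (fragments per kilobase of transcript, scaled to the library's size) is a level per length, so that genes can be set beside each other. Skiv2l was at 19.3 and 19.1 FPKM in the controls and at 10.8 and 8.55 FPKM in the knockouts, a log2 fold change of -0.92 (SE 0.12, limma adjusted p = 0.00368). Its mean level in the knockouts was thus still 0.506 of that in the controls, and the source of this remaining signal was not tested. For SKIV2L protein, the paper reports depletion by Western blot in P0 epidermis of this genotype. Keratinocyte genes dominated all 4 libraries, with Krt1 at 8246 to 13157 FPKM. Of 8 basal keratinocyte markers 3 were higher, 1 lower and 4 not called, with a median log2 fold change of -0.07. Their summed level was 4754 and 4921 FPKM in the controls against 9838 and 9830.3 FPKM in the knockouts. Krt14 alone carried this difference, at 1736 and 1812 FPKM in the controls against 7381 and 7312 FPKM in the knockouts (adjusted p = 0.000171), and the other 7 summed to 3019 and 3110 FPKM (controls) and 2458 and 2518 FPKM (knockouts). Krt15 fell from 462 and 428 FPKM to 92.1 and 155 FPKM (adjusted p = 0.00258). Among 6 spinous markers 1 was lower and none higher, with sums of 23951 and 25442 FPKM against 16278 and 19826 FPKM. Krt1 and Krt10 made up most of these sums. Of 7 granular markers 3 were lower and 1 higher, with sums of 7040 and 6422 FPKM against 5717 and 5079 FPKM, mostly Flg. Beside these marker counts, 8.99% of all tested genes were called higher and 25.4% lower, so the spinous share called lower was below that background. Fibroblast markers summed to 61.3 and 69.0 FPKM in the controls against 21.9 and 25.04 FPKM in the knockouts, most of it Dcn. Of their collagen genes, Col1a1 and Col3a1 were at most 1.27 and 1.45 FPKM in any library and were not called. Col1a2 fell from 2.60 and 3.58 FPKM to 1.84 and 1.48 FPKM (adjusted p = 0.0332). The part of these markers in the desmosome results was not tested. In RNA from whole epidermis, fewer cells of a type and less RNA per cell cannot be told apart.

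In the knockout epidermis 7 of the 10 desmosome genes rose, 1 fell and 2 did not pass the test. By fold change Dsc2 rose most, from a mean of 2.55 to 49.9 FPKM, followed by Dsg3, from 24.7 to 123 FPKM, and Dsg1b, from 174 to 389.8 FPKM. Dsc1, Dsc3, Dsp and Cdsn, which were already abundant, rose by 1.40 to 1.63 times in mean FPKM. Dsg2 fell, and Dsg1a and Pkp1 were not called. Of all tested genes 8.99% were called higher and 25.4% were called lower. The share called higher among the 10 genes was above this background and the share called lower was below it. As the genes were chosen with earlier results of these data known, this describes them and does not test them as a set. Of the 10, 7 were above 100 FPKM in both controls, while the background takes in all coding genes above 0.5 FPKM in any library. Both knockout pups were above both control pups for 8 of the 10, against 18.2% of all tested genes. With libraries rescaled to a common median, 1894 of all tested genes were called higher and 1623 lower in place of 1223 and 3455, and of the 10 genes 8 were called higher and 0 lower, as Pkp1 gained a call and Dsg2 lost it. The median log2 fold change of the 10 genes was 0.68, beside -0.20 over all tested genes. With quantile normalization these medians were 0.40 and -0.05. Their summed FPKM was 3025 and 3268 in the controls against 4742 and 4945 in the knockouts, which was 0.841% and 0.889% of the library's summed TPM (a level per length scaled to the same total in each library) in the controls against 1.27% and 1.31% in the knockouts. All calls are from limma, fitted on log2(FPKM + 1), at an adjusted p (Benjamini-Hochberg, over the 13609 genes) under 0.05.

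**Figure D1:**
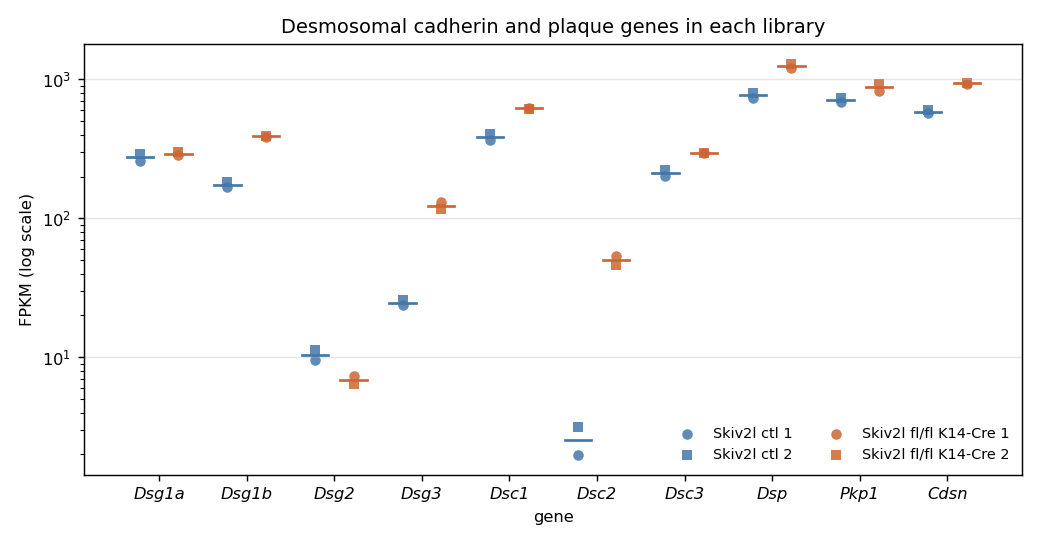
FPKM (log axis) of each desmosome gene in each library, with control pups in blue, knockout pups in orange, circles for replicate 1, squares for replicate 2 and a bar at the mean of 2. The groups lie apart for Dsc2 (1.97 and 3.13 against 53.7 and 46.2) and Dsg3 (23.6 and 25.8 against 130.5 and 116) and overlap for Dsg1a.

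Among the desmogleins, Dsg3 showed the largest fold change. Dsg3, the main desmoglein of the basal and lower spinous layers and the autoantigen of pemphigus vulgaris, was at 23.6 and 25.8 FPKM in the controls and at 130.5 and 116 FPKM in the knockouts. The groups lay far apart, and the log2 fold change was 2.27 (SE 0.10, adjusted p = 8.5e-05), a ratio of 4.99 between the mean levels (24.7 ± 1.54 and 123 ± 10.2, SD, n = 2 each). Its log2 fold change ranked 96 from the top among the 13609 tested genes. By its level, Dsg3 moved from rank 2564 among the tested genes in the controls to rank 320 in the knockouts.

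Of the Dsg1 paralogs, Dsg1b was called higher and Dsg1a was not. Dsg1b was at 167 and 182 FPKM in the controls and at 385 and 394 FPKM in the knockouts, a log2 fold change of 1.16 (SE 0.09, adjusted p = 0.000538). Dsg1a, a paralog that encodes a closely related desmoglein, was at 260.1 and 289.9 FPKM in the controls and at 285 and 298 FPKM in the knockouts. Its groups overlapped, and the log2 fold change of 0.09 had a 95% interval of -0.13 to 0.31 (adjusted p = 0.473). In every control library Dsg1a was the more abundant of the pair, with Dsg1a to Dsg1b ratios of 1.56 and 1.60, and in every knockout library Dsg1b was, with ratios of 0.741 and 0.756. The summed level of both was 427 and 472 FPKM in the controls against 671 and 693 FPKM in the knockouts.

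How reads were divided between these copies limits that contrast. The read length is not given in the sources used here, so a length of 75 bases was assumed, and longer reads would be shared less often. Of all 75-base stretches of the annotated Dsg1a transcript, 29.2% also occur in Dsg1b or Dsg1c, and for Dsg1b the share is 39.7%, in stretches found in Dsg1a or Dsg1c. A read of that length that matches such a stretch cannot be assigned by its sequence alone, so the separate values of Dsg1a and Dsg1b are uncertain where their sum is less so. Dsg1c, a further copy that was singled out after its values were seen, was less abundant than both in the controls, at 20.4 and 23.6 FPKM, and was at 31.3 and 33.3 FPKM in the knockouts (log2 fold change 0.54, adjusted p = 0.0115). Dsg3, the desmocollins, Pkp1 and Cdsn shared no stretch of that length with any other gene.

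Dsg2, the desmoglein of simple epithelia and of the heart, was the only one of the 10 genes called lower. It was at 9.54 and 11.2 FPKM in the controls and at 7.37 and 6.39 FPKM in the knockouts, and its log2 fold change was -0.53 (SE 0.12, adjusted p = 0.0221). Both knockout pups lay below both controls, but the call depended on the processing. With libraries rescaled to a common median the log2 fold change was -0.34 (adjusted p = 0.0821), and without control 2 it was -0.42 (adjusted p = 0.165). The call was also lost without control 1 (adjusted p = 0.0864) and without knockout 2 (adjusted p = 0.0689). Its mean depth was 39.4 and 48.4 reads per base in the controls against 29.2 and 25.7 in the knockouts. An antisense gene, Gm16090, holds 3.15% of the 75-base stretches of Dsg2 and was at 0.296 FPKM or less in every library.

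The share of each desmoglein in the family's summed FPKM did not overlap between the groups. As the shares add up to a fixed total, they are not separate results. Dsg3 made up 5.13% and 5.07% of the summed desmoglein FPKM in the controls against 16.1% and 14.2% in the knockouts. Dsg1a went from 56.5% and 57.0% to 35.3% and 36.6%, and Dsg1b from 36.3% and 35.7% to 47.6% and 48.4%. Dsg2 accounted for 2.07% and 2.20% in the controls against 0.912% and 0.784% in the knockouts. The summed Dsg1a and Dsg1b level was 18.1 and 18.3 times that of Dsg3 in the controls against 5.14 and 5.97 times in the knockouts. That ratio depends less on the division of reads between Dsg1a and Dsg1b than their separate shares do. It still depends on it in part, as FPKM is per length and their transcripts differ in length (5686 and 3965 bases). Reads shared with Dsg1c, which is outside the sum, also remain uncertain. In these shares and ratios each library is its own reference, so a scaling of the whole library cancels.

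The desmocollins all rose, and the least abundant had the largest fold change. Dsc2, the most widely expressed desmocollin of other epithelia, was at 1.97 and 3.13 FPKM in the controls and at 53.7 and 46.2 FPKM in the knockouts. The groups did not overlap, and the log2 fold change of 3.86 (SE 0.17, adjusted p = 0.000104) was the largest of the 10 genes. It is on the log2(FPKM + 1) scale, which understates changes from low levels. The ratio of the mean levels was 19.6. Its log2 fold change ranked 33 from the top among the tested genes, and its level rank went from 10148 in the controls to 1014 in the knockouts. The control level was low but not at the limit of detection, with a mean depth of 10.2 and 17.0 reads per base.

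Dsc1, the desmocollin of the upper layers, was at 365 and 403 FPKM in the controls and at 621 and 615 FPKM in the knockouts (log2 fold change 0.69, SE 0.09, adjusted p = 0.00334). Dsc3, the desmocollin of the lower layers, was at 201 and 221 FPKM in the controls and at 297 and 296 FPKM in the knockouts (log2 fold change 0.49, SE 0.09, adjusted p = 0.00909). Neither gene's groups overlapped. The rise of Dsc3 missed the threshold when a control was left out (adjusted p = 0.0825 without control 1 and 0.0512 without control 2), and that of Dsc1 passed it in every alternative. Dsc1 kept its share of the summed desmocollin FPKM, with 64.3% and 64.2% in the controls against 63.9% and 64.2% in the knockouts. Dsc2 went from 0.347% and 0.50% to 5.53% and 4.83%, and Dsc3 from 35.4% and 35.3% to 30.6% and 30.9%. Dsc2 thus stayed the least abundant desmocollin in every library.

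**Figure D2:**
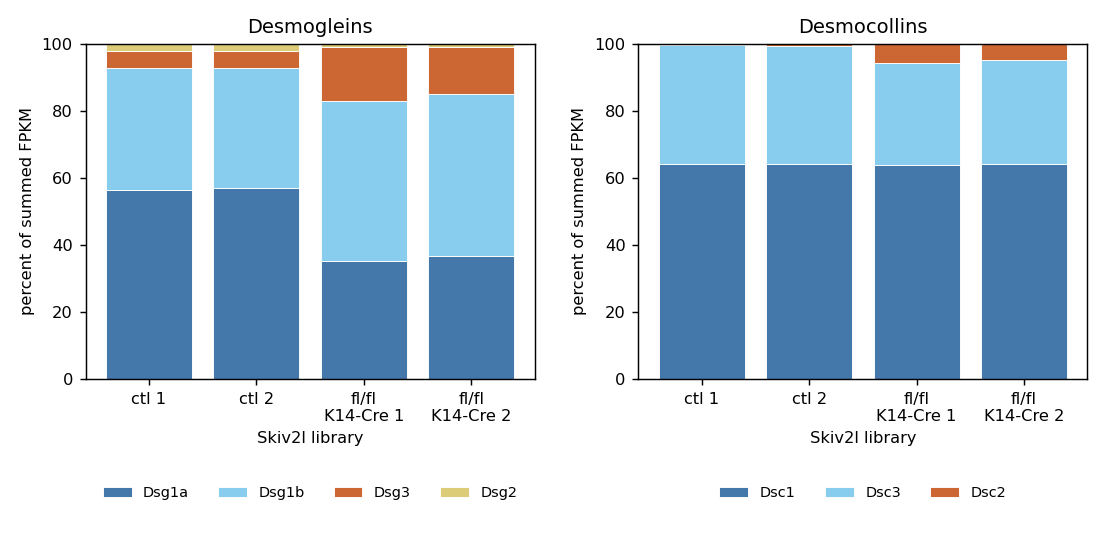
Stacked bars of each gene's percent of the summed FPKM of 4 desmogleins (left) and 3 desmocollins (right), 1 bar for each library. Dsg3 took 5.07% to 5.13% of the desmogleins in the controls against 14.2% to 16.1% in the knockouts, and Dsc2 went from under 0.5% of the desmocollins to at least 4.83%.

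Summed over each family, desmogleins and desmocollins showed similar ratios between the groups. The desmogleins summed to 460.1 and 508 FPKM in the controls against 808 and 815 FPKM in the knockouts, a ratio of 1.68 between the means, and the desmocollins to 568 and 627 FPKM and to 971 and 957 FPKM, a ratio of 1.61. The desmoglein to desmocollin ratio was 0.810 and 0.811 in the controls against 0.832 and 0.852 in the knockouts. The cadherin genes lie beside each other on mouse chromosome 18, in 643.592 kb that hold 12 genes, 9 of them protein-coding and 7 of them among the 10 described here. The order is Dsc3, Dsc2, Dsc1, Dsg1c, Dsg1a, Dsg1b, Dsg4, Dsg3 and Dsg2, with the desmocollins on the minus strand and the desmogleins on the plus strand. Dsc2 thus lies between Dsc3 and Dsc1, which rose less. Dsg3 lies between Dsg4, which was at 0.440 FPKM or less in every library and was not tested, and Dsg2, which was called lower. In GRCm38 coordinates Dsc2 (ENSMUSG00000024331.11) spans chr18:20030633-20059554 and Dsg3 (ENSMUSG00000056632.8) spans chr18:20510274-20547459. Dsg1a (ENSMUSG00000069441.3) is at chr18:20310811-20343350, Dsg1b (ENSMUSG00000061928.6) at chr18:20376729-20410196 and Dsg2 (ENSMUSG00000044393.15) at chr18:20558074-20604521. Dsc1 (ENSMUSG00000044322.7) lies at chr18:20084184-20114871 and Dsc3 (ENSMUSG00000059898.9) at chr18:19960930-20002351.

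Of the plaque proteins, Dsp rose and Pkp1 did not pass the test. Dsp (ENSMUSG00000054889.10, chr13:38151294-38198577, plus strand) links the plaque to keratin filaments and was the most abundant of the 10 genes in every library. Its values were 741 and 799.7 FPKM in the controls against 1213 and 1300.3 FPKM in the knockouts, with no overlap. Dsp had a log2 fold change of 0.71 (SE 0.10, adjusted p = 0.00381), and of 0.34 with quantile normalization (adjusted p = 0.0174). Without control 1 its adjusted p was 0.0565. A gene model on the opposite strand, Gm10129, covers 4.40% of the 75-base stretches of Dsp, and since the strandedness of the libraries was not given in the sources used here, reads of the 2 genes cannot be separated there.

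Pkp1 (ENSMUSG00000026413.12, chr1:135871395-135919207, minus strand) encodes plakophilin 1, which gathers desmoplakin and the cadherins at the plaque and is lost in a human skin fragility syndrome. It was at 687 and 734 FPKM in the controls and at 819.8 and 929.8 FPKM in the knockouts. Both knockout values were above both controls, but the log2 fold change of 0.30 (95% interval 0.05 to 0.55) had an adjusted p of 0.0684. Rescaling each library to a common median gave 0.51 (adjusted p = 0.0164), a setting in which 13.9% of all tested genes were called higher, and quantile normalization gave 0.04 (adjusted p = 0.713). The ratio of Pkp1 to Dsp was 0.928 and 0.918 in the controls against 0.676 and 0.715 in the knockouts, so Pkp1 was close to Dsp in level in the controls and lower relative to it in the knockouts.

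Cdsn (ENSMUSG00000039518.7, chr17:35552128-35557180, plus strand), the glycoprotein that is added to desmosomes as they become corneodesmosomes, was at 568 and 599 FPKM in the controls and at 929 and 942 FPKM in the knockouts. The groups did not overlap, and the log2 fold change was 0.68 (SE 0.09, adjusted p = 0.00307). Cdsn rose by nearly the same factor as Dsp (1.60 and 1.63 in mean FPKM), and the Cdsn to Dsp ratio overlapped between groups, at 0.767 and 0.749 in the controls against 0.766 and 0.724 in the knockouts. Cdsn stood at 1.33 and 1.27 times the summed Dsg1a and Dsg1b level in the controls and at 1.39 and 1.36 times in the knockouts.

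Promoter sequence was used here for Dsp and Cdsn, and the 250 bases before their starts in the deposited coordinates are shown, from RefSeq on GRCm38.p6, read 5′ to 3′ on the plus strand. Dsp is at chr13:38151044-38151293 and Cdsn at chr17:35551878-35552127, and capitals mark the GC box GGGCGG or its reverse complement CCGCCC.
Dsp: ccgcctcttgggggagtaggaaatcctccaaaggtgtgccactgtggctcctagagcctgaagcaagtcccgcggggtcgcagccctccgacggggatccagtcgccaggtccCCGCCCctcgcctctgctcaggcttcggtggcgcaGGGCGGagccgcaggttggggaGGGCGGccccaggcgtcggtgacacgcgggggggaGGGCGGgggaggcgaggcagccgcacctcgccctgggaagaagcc
Cdsn: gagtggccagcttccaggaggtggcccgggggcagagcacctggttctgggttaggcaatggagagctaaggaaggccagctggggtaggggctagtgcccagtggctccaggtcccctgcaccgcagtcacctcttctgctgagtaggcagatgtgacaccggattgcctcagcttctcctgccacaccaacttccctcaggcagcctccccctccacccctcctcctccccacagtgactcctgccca
The windows were searched on both strands for AACCGGTT and AACNNGTT, the consensus and core bound by grainyhead-like factors (the core matches wherever the consensus does), for the AP-1 motif TGANTCA, and for the TATA box TATAAA, the CCAAT box and the GC box. The Dsp window held 4 GC boxes, which start 137, 102, 80 and 45 bases before the transcript start, and none of the other motifs. A GC box was present in 32.7% of 32851 promoter windows of the same length. A second RefSeq window of Cdsn, before a start further upstream at chr17:35542851-35543100, was searched too and is not shown. Neither Cdsn window held any of the 6, which occur in 0.116% (AACCGGTT), 3.64% (AACNNGTT), 6.75% (TGANTCA), 12.4% (TATAAA) and 33.8% (CCAAT) of all windows. A match is only a match of letters, and its absence says nothing of the factor.

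In the controls the order of the levels was Dsp (770.3 ± 41.6 FPKM, mean ± SD, n = 2), Pkp1 (711 ± 33.0), Cdsn (584 ± 21.6), Dsc1 (384 ± 26.6), Dsg1a (275 ± 21.1), Dsc3 (211 ± 14.3), Dsg1b (174 ± 10.5), Dsg3 (24.7 ± 1.54), Dsg2 (10.4 ± 1.17) and Dsc2 (2.55 ± 0.822). No neighbours in this order overlapped between pups, although Dsp and Pkp1 came close. In the knockouts it was Dsp (1257 ± 61.5 FPKM), Cdsn (936 ± 8.93), Pkp1 (875 ± 77.8), Dsc1 (618 ± 3.96), Dsg1b (389.8 ± 6.62), Dsc3 (297 ± 0.458), Dsg1a (292 ± 9.07), Dsg3 (123 ± 10.2), Dsc2 (49.9 ± 5.30) and Dsg2 (6.88 ± 0.694). Cdsn and Pkp1 overlapped there, as did Dsc3 and Dsg1a. Dsc2, which was below Dsg2 in both controls, was above it in both knockouts.

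**Figure D3:**
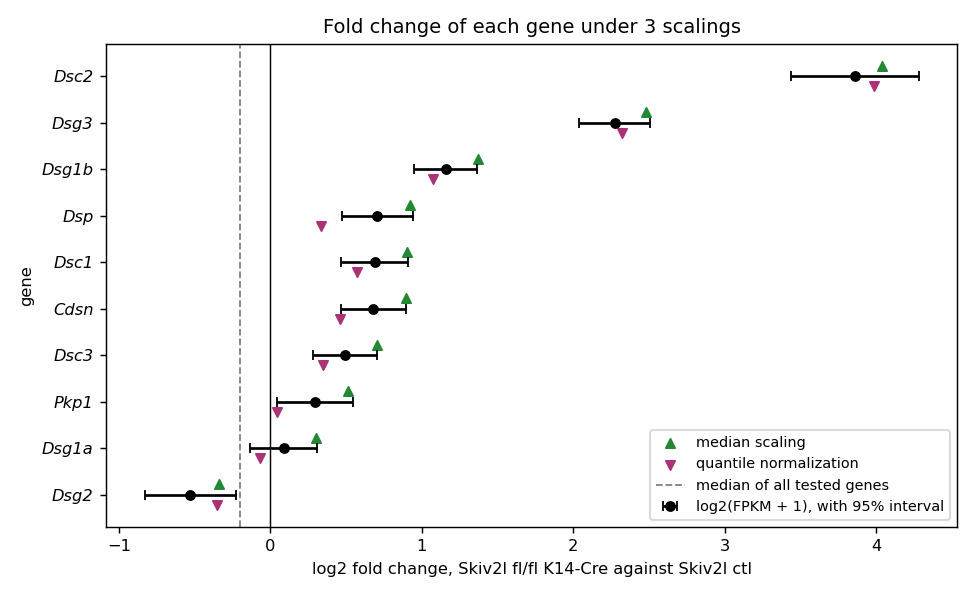
Log2 fold change of knockout against control for each desmosome gene (black, with 95% interval from limma, 2 libraries a group), and the same after median scaling (green) and quantile normalization (purple). Dsc2, Dsg3 and Dsg1b lie above 1 in all 3 scalings, Dsg1a changes sign with quantile normalization (-0.0699), and the dashed line marks the median of all tested genes (-0.20).

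In all, 9 ratios between these genes were compared within libraries, and for 8 of them the knockout and control pups did not overlap. No share over other gene pairs was computed, and these ratios, which reuse genes, are not separate results. The largest were those of Dsc2 over Dsc3 (0.00981 and 0.0142 against 0.181 and 0.156, a difference of 3.83 in log2 ratio) and of Dsg2 over Dsg3 (0.404 and 0.435 against 0.0565 and 0.0551, a difference of -2.91). The difference was -1.72 for Dsg1a plus Dsg1b over Dsg3, -1.08 for Dsg1a over Dsg1b and -0.41 for Pkp1 over Dsp. Smaller differences were seen for Dsc1 over Dsc3 (0.20), Cdsn over Dsg1a plus Dsg1b (0.08) and desmogleins over desmocollins (0.05). For these 8 the two-sided exact permutation p was 0.333, the smallest that 4 libraries allow (0.375 after adjustment over the 9 ratios), and for Cdsn over Dsp it was 0.667, so that no ratio could pass a threshold of 0.05 in this design.

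The other genes of the desmosome moved partly with them. Of 11 further desmosome genes 10 were tested, 5 were called higher and none lower, against 8.99% and 25.4% of all tested genes. Their median log2 fold change was 0.34. Perp, a membrane protein needed for stable desmosomes, was at 897 and 995 FPKM in the controls against 1396 and 1424 FPKM in the knockouts (log2 fold change 0.58, adjusted p = 0.00818). Jup, the plakoglobin that binds the cadherin tails, was at 907 and 952 FPKM in the controls against 1336 and 1366 FPKM in the knockouts (log2 fold change 0.54, adjusted p = 0.00778). Both lost the call with quantile normalization, where Jup was at 0.03 (adjusted p = 0.795) and Perp at 0.11 (adjusted p = 0.345), and both lost it when either control was left out (adjusted p of 0.0546 to 0.0848). The others called were Dsg1c, Pkp3 and Pof1b. The genes of the cornified envelope plakins Ppl and Evpl, and Pkp2, Pkp4 and Kazn, were not called. No desmosome gene of this list was called without control 1 and 1 was without control 2.

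Adherens junction genes were set beside them, as these junctions also join keratinocytes but bind actin. Of 15 genes, 3 were called higher and 6 lower, against 8.99% and 25.4% of all tested genes. Their median log2 fold change was -0.29, close to that of all tested genes. E-cadherin (Cdh1) had a log2 fold change of -0.11 and was not called (adjusted p = 0.349). The largest rises were Nectin1 (0.45, adjusted p = 0.00932) and Cdh3, the P-cadherin of basal cells (0.43, adjusted p = 0.0138), and the largest falls Nectin3 (-1.001, adjusted p = 0.0124) and Plekha7 (-0.83, adjusted p = 0.00177). Leaving out a control reduced the 9 calls to 2 in each case.

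Of 15 genes listed as corneodesmosome proteases and inhibitors, 11 were called higher and none lower. Whether each of them acts on corneodesmosomes was not tested. The shares over all tested genes were 8.99% and 25.4%. The median log2 fold change of the list, which pools proteases with inhibitors, was 0.76. The protease gene Klk5 was among the 4 not called (-0.12, adjusted p = 0.426), while the inhibitor gene Spink5 was called higher (1.06, adjusted p = 0.00166). The protease genes Klk7 (0.76, adjusted p = 0.00185) and Klk14 (1.47, adjusted p = 0.0062) were called higher too, Klk14 from a mean of 0.109 FPKM. Klk6, a kallikrein protease, was at 6.81 and 9.39 FPKM in the controls against 306 and 263 FPKM in the knockouts (log2 fold change 4.98, adjusted p = 2.94e-05). Klk10, of the same cluster, was at 39.6 and 42.8 FPKM in the controls against 194 and 166 FPKM in the knockouts (log2 fold change 2.10, adjusted p = 0.000149). Without control 1 the number called was 6, and without control 2 it was 7.

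**Figure D4:**
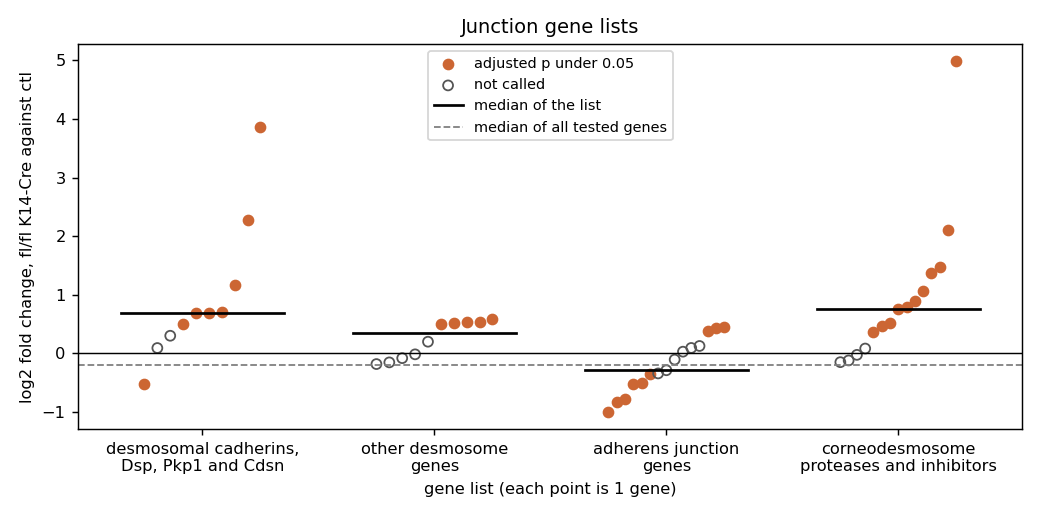
Log2 fold change of knockout against control for every tested gene of 4 lists, each point 1 gene, filled where the limma adjusted p was under 0.05, with the median of each list as a black line. The medians were 0.68 for the desmosomal cadherins with Dsp, Pkp1 and Cdsn, 0.34 for other desmosome genes, -0.29 for adherens junction genes and 0.76 for corneodesmosome proteases and inhibitors, beside -0.20 for all tested genes (dashed).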

How the data were processed

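Total RNA sequencing of P0 epidermis (RNeasy Mini kit) gave 1 gene table for each of the 4 pups. Per the labels, the authors mapped to GRCm38. FPKM values came from the authors' institutional RNASeq workflow, while aligner, version, read length and strandedness are not given in the sources used here. The deposited tables hold FPKM (scaled by length and library size), TPM (transcripts scaled to one fixed total) and coverage (mean signal per base) for each gene, and no counts. Here, FPKM was summed per gene ID (54752 genes, of which 53861 had the ID and coordinates of GENCODE M21), and the 13609 of 21921 protein-coding genes that exceeded 0.5 FPKM in any library were tested on log2(FPKM + 1) by limma 3.58.1 in R 4.3.3 (empirical Bayes with trend) with Benjamini-Hochberg adjustment, a gene being called at an adjusted p under 0.05. Fold changes on this scale understate the change of low genes. Ratios within a library were compared by two-sided exact permutation tests. TPM, other pseudocounts, filters and scalings, a replicate block and leaving out each library were alternatives. Shared stretches of an assumed 75 bases were counted over GENCODE M21 transcripts, and promoter windows were used here for Dsp (1) and Cdsn (2). The 10 genes and all lists were chosen with earlier results of these data known. All 10 genes are named, with Skiv2l, Jup, Perp and, of each junction list, the 2 largest called rises and falls, and other genes were named after their values were seen. Hair follicle (7 genes, 4 called lower), melanocyte (5, 1 higher), leukocyte (5, 2 lower), fibroblast (6, 2 lower), endothelium (3), muscle (5) and neutrophil (4) markers were also read, the last 3 lists without a call and neutrophil markers at 0.0973 FPKM or less. Nothing states that the pups came from separate litters. The limma p-values measure only the spread between 2 pups a group, with each gene's variance drawn toward a trend fitted over all tested genes.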

Additional observations from a re-analysis of the deposited data

How the results depend on the processing

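Of 366 values recomputed under alternatives for 35 results, 316 kept their direction and their side of the threshold (or stayed within 1.5 times the count). Another 25 were single-gene calls that were lost. Ratios within a library were judged by direction alone and could not change with TPM, so part of that total was fixed in advance. Dsg1b, Dsg3, Dsc1, Dsc2 and Cdsn kept their call in all 12 alternatives. Dsg2 accounts for the number of desmosome genes called lower, which was 0 with no filter, median scaling or quantile normalization and 0 to 1 when a library was left out, where the number called higher was 5 to 7. Over all tested genes, median scaling gave 1894 higher and 1623 lower calls and 1917 were lower with quantile normalization, and leaving out a library gave 497 to 1146 higher and 805 to 3135 lower, the low ends without control 1. Other desmosome genes called numbered 3 with no filter or quantile normalization and 0 to 5 without a library, adherens junction genes 2 to 9 and corneodesmosome genes 6 to 10. A lone library was assumed to vary like the other group. Dsg1a turned to -0.0699 with quantile normalization, and the knockout minus control difference in the Cdsn to Dsp log2 ratio ranged from -0.0658 to 0.0147 when a library was left out, reversing without knockout 2. The cause was not tested, though a left-out library leaves fewer samples. The all-gene median of -0.20 became -0.03 with median scaling, -0.05 with quantile normalization and -0.27 with TPM. Pups of the same replicate number did not deviate together across genes (correlation of their deviations -0.08). This cannot tell whether they shared a litter or batch, which the labels do not give. With a replicate block the number called higher was 8, Pkp1 being added (adjusted p = 0.0299), and 1 was lower, with 1264 and 3393 over all genes. Blocked, 5 other desmosome, 9 adherens and 11 corneodesmosome genes were called. The tables hold no counts, so counting error is unknown.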
